A study of Mus musculus with 24 samples.

Results

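Wild-type ovary was set against wild-type uterus in mice at 2.5 days post coitus (dpc), by RNA sequencing of whole organs. The comparison used 3 ovary and 3 uterus libraries, which were all those labelled Wildtype for these organs and 6 of the 24 libraries in the series. The remaining libraries, from Kdm4a knockout females and from pituitary and hypothalamus, were left out. All 6 libraries came from C57BL6 females of 8 to 10 weeks that were virgin before a timed mating at 2 females per male and for which the labels name no altered allele or drug. Mating was checked by flushing embryos from the oviduct, and the whole organs were frozen at once. The labels call the libraries biological replicates and do not say whether an ovary and a uterus came from 1 female, so p-values here measure the spread between these libraries.

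The ovary holds follicles, in which granulosa and theca cells surround an oocyte, and after ovulation it holds corpora lutea, which make progesterone from cholesterol under luteinizing hormone and, in rodents, prolactin. The uterus has a wall of smooth muscle, the myometrium, around an endometrium of stroma with luminal and glandular epithelium, which responds to oestrogen and progesterone through their nuclear receptors. Both organs arise in the urogenital ridge of the embryo, and both contain fibroblasts, vessels and immune cells.

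Levels are in CPM, counts divided by scaled library totals, and fold changes are log2 of ovary over uterus, with an SE. Totals ran from 14927641 to 19438487 counts per library. The counting intervals given here pool counts over the 3 libraries of an organ. They cover counting error only and not the spread between libraries. Reads carried no molecular identifiers, so the intervals also treat every read as its own molecule. Kdm4a, the histone demethylase gene deleted elsewhere in the series, measured 90.2, 94.7 and 95.9 CPM in ovary and 108, 106 and 93.9 CPM in uterus, ranges that overlapped. The first principal component separated the organs and held 90.4% of the variance. The second, with 4.36%, placed ovary library 2 at -49.2, against 28.8 and 19.3 for ovary libraries 1 and 3. Fat was trimmed from the organs per the labels' protocol, but 12 adipocyte genes summed to 189, 2568 and 960 CPM in ovary libraries 1, 2 and 3, against 18.2 to 21.2 CPM in uterus. Adipoq, which encodes adiponectin, measured 0.135, 180 and 48.4 CPM in those ovary libraries. Ovary library 2 also held the highest sum of nuclear, ribosomal and stress transcripts, 2808 CPM against 1766 and 1703 CPM in ovary libraries 1 and 3. Uterus library 3 held the highest uterine value for 960 of the 2196 genes that were over 2-fold higher in ovary (43.7%). The part of these library differences in the results was not tested, and values that rest on such a library are also given without it.

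Of 15027 genes tested, 5285 (35.2%) were higher and 5152 (34.3%) lower in ovary at an edgeR adjusted p under 0.05. A stricter test, of whether the difference exceeds 2-fold, called 2196 genes (14.6%) higher and 2014 (13.4%) lower. For 5999 genes (39.9%) the 95% interval of the fold change lay wholly within 2-fold either way, and these are called shared, although a small difference can still pass the first test. The median log2 fold change of all genes was -0.02. These shares are the background for every gene list given here. The lists describe cell types and pathways by their members, and in whole organs fewer cells of a type and less RNA per cell cannot be told apart.

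The genes with the largest folds toward ovary included steroid enzymes, oocyte genes and hormone receptors. Cyp11a1, the enzyme that cuts the cholesterol side chain to begin steroid synthesis, measured 7228, 5742 and 6715 CPM in ovary and 6.09, 3.40 and 6.70 CPM in uterus (log2 fold change 10.25, SE 0.29, edgeR adjusted p = 1.28e-08). Hao2, a hydroxy acid oxidase of peroxisomes, measured 264, 232 and 272 CPM in ovary against 0.155, 0.0493 and 0.244 CPM in uterus. Mrap, which encodes an accessory protein of melanocortin receptors, measured 117, 104 and 157 CPM in ovary against 0.103, 0.0987 and 0.122 CPM in uterus. In each of these genes all 3 ovary libraries lay above all 3 uterus libraries, which the choice of the largest folds required. Rims4, of a family that acts in synaptic exocytosis, had no count in uterus and 19.3, 15.5 and 32.5 CPM in ovary, at least 437-fold higher against a floor of 3 counts over the 3 uterus libraries. Serpina5, Prss35, Bpifb4, Akr1cl, Nlrp14, Zp2, Cyp17a1 and Lhcgr complete the 12 largest. Single libraries moved the fold where uterus held few counts: without uterus library 3 the log2 fold change was 13.33 instead of 11.52 for Nlrp14 and 13.41 instead of 11.60 for Zp2, without uterus library 2 it was 10.93 instead of 10.16 for Bpifb4 and 12.85 instead of 10.77 for Serpina5 (10.16 without uterus library 1), and without ovary library 2 it was 10.58 instead of 11.47 for Cyp17a1.

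The largest folds toward uterus were found for genes of varied roles. Fxyd4, a regulator of the sodium pump, measured 0, 0.283 and 0.0529 CPM in ovary against 368, 388 and 325 CPM in uterus. Slc5a11, a sodium-driven inositol transporter, had 1 count over the 3 ovary libraries and 3586 over the 3 uterus libraries, a ratio of 3060 toward uterus with an exact counting interval of 549 to 121000. Them5, a thioesterase gene, and Rxfp1, the relaxin receptor, had no count in ovary and were at least 492-fold and 351-fold lower there than in uterus. Both had counts in every uterus library. Pcp4, which encodes a small regulator of calmodulin, measured 0.135, 0.921 and 1.06 CPM in ovary and 716, 764 and 1169 CPM in uterus. Serpina1e, Ces1e, Gcnt3, Gpx2, Hoxa11, Hoxa11os and Msx1os complete the 12 largest, and Serpina1e belongs to a family of near-identical copies between which reads may be split. Hoxa11os overlaps part of Hoxa11 on the other strand, and this library type keeps no strand, so reads from the overlap cannot be told apart. For Msx1os no position was found, so its overlap with Msx1 was not measured. Single ovary libraries moved the fold of genes with few ovary counts: without ovary library 2 the log2 fold change was -13.26 instead of -11.65 for Fxyd4, -12.07 instead of -10.85 for Hoxa11 and -11.49 instead of -10.71 for Serpina1e. Without ovary library 3 it was -13.05 instead of -10.31 for Gpx2, -13.09 instead of -11.15 for Slc5a11, -12.38 instead of -10.45 for Ces1e and -10.78 instead of -11.45 for Hoxa11os, and -12.35 for the last without ovary library 1.

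**Figure D1:**
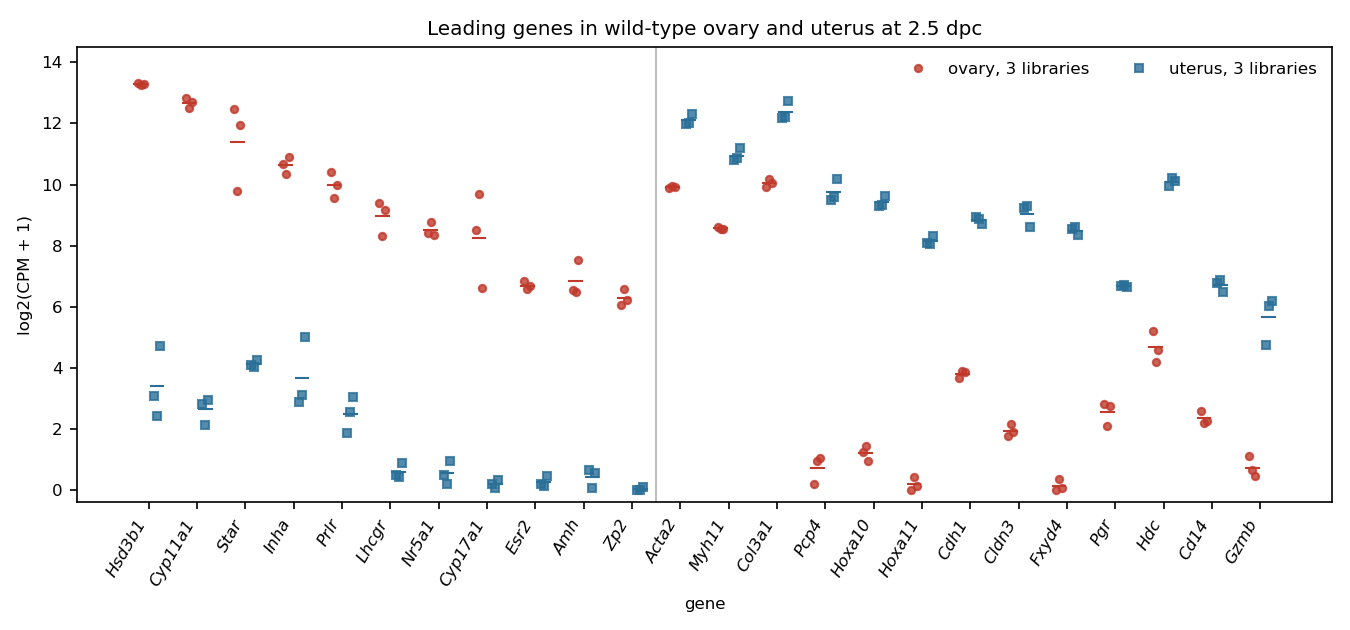
Levels of 24 genes in wild-type ovary (circles, left) and uterus (squares, right) as log2(CPM + 1), with 1 point per library and a bar at the mean of 3. In each gene the libraries of the 2 organs do not overlap, and the spread among ovary libraries is widest for Star and Cyp17a1.

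Steroid synthesis set the ovary apart as a group. Of 20 tested genes for its enzymes and carriers, 18 were higher in ovary, all 18 over 2-fold, and 1 was lower, against 35.2% higher, 14.6% over 2-fold higher and 34.3% lower among all genes, with a median log2 fold change of 5.17 against -0.02 for all genes. The 22 listed genes summed to 30290, 20180 and 25870 CPM in the ovary libraries, against 417 to 467 CPM in uterus. Hsd3b1, which makes progesterone from pregnenolone, measured 10240, 9754 and 9999 CPM in ovary and 7.38, 4.39 and 25.2 CPM in uterus. It was the gene with most counts in every ovary library, with 0.922% to 0.979% of the total, and its close copy Hsd3b6 may share some of its reads. Uterus library 3 was the highest of its group, and without it the log2 fold change of Hsd3b1 was 10.72 instead of 9.68 (edgeR).

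The ovary libraries differed among themselves in the same pathway. Star, which carries cholesterol to the inner mitochondrial membrane, measured 5664, 874 and 3976 CPM in ovary and 15.9, 15.3 and 18.3 CPM in uterus (log2 fold change 7.73, SE 0.94, edgeR adjusted p = 0.00158). Hsd17b7, a luteal enzyme of oestradiol and cholesterol synthesis, measured 1758, 154 and 809 CPM in ovary against 5.30 to 6.92 CPM in uterus. Cyp17a1, the androgen-forming enzyme of theca cells, measured 363, 824 and 95.9 CPM in ovary against 0.155, 0.0493 and 0.244 CPM in uterus. Ovary library 2 was thus lowest for Star and Hsd17b7 and highest for Cyp17a1, and no ovary library came near the uterine values. Without ovary library 2 the log2 fold changes were 8.19 for Star, 7.73 for Hsd17b7 and 10.58 for Cyp17a1, and without ovary library 1 that of Hsd17b7 was 6.32. Akr1c18, which turns progesterone into an inactive form, measured 174, 231 and 32.1 CPM in ovary against 0.244 to 1.60 CPM in uterus. Tspo, an outer mitochondrial membrane protein, was the member that was lower in ovary, with a log2 fold change of -0.86 (edgeR).

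Genes of cholesterol synthesis and uptake, which feed the steroid pathway, were mostly higher in ovary. Of 29 tested, 22 were higher, 18 of them over 2-fold, and 2 were lower, with a median log2 fold change of 2.62. Hmgcs1, which makes the precursor of mevalonate, measured 1827, 946 and 1276 CPM in ovary and 75.2, 63.6 and 72.3 CPM in uterus (log2 fold change 4.26, SE 0.25, edgeR adjusted p = 1.62e-06). Scarb1, the receptor for high-density lipoprotein, measured 1944, 523 and 1702 CPM in ovary against 30.7 to 40.0 CPM in uterus. Ovary library 2 was the lowest ovary library for 22 of the 29 genes. The list summed to 10440, 4823 and 7870 CPM in ovary and to 1127 to 1186 CPM in uterus. Without ovary library 2, 23 genes were higher and 21 of them over 2-fold.

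The 250 bases before the start of 19 of the 29 cholesterol genes were found in RefSeq (GRCm38.p6). Of their 22 promoters, 2 held the letters CACCCCAC on either strand, the core of a sterol regulatory element. That share was 9.09%, against 2.58% of all 32851 promoters and 2.88% of the 14358 promoters of genes tested. Among the promoters of other lists, 3 of 24 for smooth muscle genes (12.5%) and 4 of 37 for fibroblast and matrix genes (10.8%) also held it. Those 2 shares were above that of the cholesterol list. The share was 7.69% for uterine epithelium, 6.67% for granulosa, 5.26% for steroid synthesis and 0 for luteal genes. A match describes the letters alone. Hmgcs1 and Acat2, which forms acetoacetyl-CoA, carried the core. The letters CAAGGTCA are the half-site of steroidogenic factor 1 and its relatives, and contain the AGGTCA of many other nuclear receptors. They stood before Dhcr7, the last enzyme of cholesterol synthesis, and Amhr2, the receptor for anti-Mullerian hormone. On the other strand they also stood before Oxt, a gene of the luteal list whose stretch is not printed here. These 8 letters stood in 1.33% of all promoters, in 0.968% of those of genes tested and in 0 of the 19 promoters found for the steroid synthesis list. The searches covered both strands, and capitals mark the match.
Hmgcs1, chr13:119690189-119690248, plus strand: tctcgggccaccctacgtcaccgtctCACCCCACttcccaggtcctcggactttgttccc
Acat2, chr17:12960873-12960932, minus strand: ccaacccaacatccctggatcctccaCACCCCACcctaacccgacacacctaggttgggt
Dhcr7, chr7:143823089-143823148, plus strand: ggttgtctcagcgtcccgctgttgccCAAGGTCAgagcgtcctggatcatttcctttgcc
Amhr2, chr15:102445117-102445176, plus strand: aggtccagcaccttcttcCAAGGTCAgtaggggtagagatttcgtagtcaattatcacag
Acat2 measured 76.5, 28.9 and 65.2 CPM in ovary and 20.5, 22.6 and 20.7 CPM in uterus, and Dhcr7 measured 368, 72.1 and 344 CPM in ovary against 29.6 to 38.4 CPM in uterus. Amhr2 measured 62.9, 67.3 and 68.1 CPM in ovary and 6.14, 7.89 and 6.70 CPM in uterus. All 3 were higher in every ovary library than in any uterus library, and Acat2 and Dhcr7 were lowest in ovary library 2.

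Genes of the corpus luteum and of granulosa cells were mostly higher in ovary. Of 18 tested luteal genes, 13 were higher, 12 of them over 2-fold, and 3 were lower. Lhcgr, the receptor for luteinizing hormone, measured 671, 321 and 578 CPM in ovary and 0.413, 0.345 and 0.853 CPM in uterus. Prlr, the prolactin receptor, measured 1367, 760 and 1013 CPM in ovary against 2.63, 4.93 and 7.25 CPM in uterus. Both were lowest in ovary library 2 and remained far above uterus there. The lower members were Pgr, the progesterone receptor, Igfbp6 and the matrix protease Mmp2, which the uterus also uses. Timp3, an inhibitor of matrix proteases, measured 618, 1198 and 555 CPM in ovary against 467, 376 and 402 CPM in uterus, and its log2 fold change was 0.93 (edgeR adjusted p = 0.0344), or 0.50 without ovary library 2. The call for Timp3 was lost without any 1 uterus library (edgeR adjusted p = 0.0603, 0.103 and 0.115 without libraries 1, 2 and 3).

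Of 23 tested granulosa genes 22 were higher in ovary, 21 of them over 2-fold, with a median log2 fold change of 4.21. By edgeR 0 were lower, also at an unadjusted p under 0.05, and DESeq2 and limma-voom each called 1 lower. Without ovary library 2 edgeR also called 1 lower. Inha, the inhibin alpha subunit, measured 1624, 1308 and 1922 CPM in ovary and 6.35, 7.60 and 31.6 CPM in uterus. Amh, the anti-Mullerian hormone of small growing follicles, measured 91.7, 87.8 and 184 CPM in ovary against 0.568, 0.0493 and 0.487 CPM in uterus. Gja1, the gap junction protein that couples granulosa cells, measured 4492, 4352 and 3774 CPM in ovary and 196, 200 and 287 CPM in uterus. Uterus library 3 held the highest uterine value in 13 of the 23 genes, and without it the log2 fold change of Inha was 7.85 instead of 6.75. Foxl2, a transcription factor of granulosa cells, was also counted in uterus, with 328, 206 and 288 CPM in ovary against 59.8, 48.9 and 59.5 CPM there (log2 fold change 2.29, SE 0.17, edgeR adjusted p = 2.31e-06).

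Oocyte genes had the highest median of the lists for ovarian cells and pathways. Of 28 tested, 27 were higher in ovary, all over 2-fold, and 0 were lower by edgeR, also unadjusted, DESeq2 or limma-voom, with a median log2 fold change of 6.83, or 6.57 with genes that had no uterine count set at their bound. Zp2, a protein of the zona pellucida, measured 65.4, 94.4 and 73.7 CPM in ovary and had 1 count over the 3 uterus libraries, a ratio of 4330 with an exact counting interval of 776 to 171000. Without uterus library 3, which held it, the log2 fold change of Zp2 was 13.41 instead of 11.60. Gdf9, a growth factor of the oocyte, measured 34.2, 46.3 and 39.3 CPM in ovary against 1.497, 1.73 and 1.16 CPM in uterus. Ovary library 2 was the highest of its group for both. The list summed to 558, 779 and 594 CPM in ovary against 15.4 to 18.3 CPM in uterus. Of 10 tested genes named for theca and interstitial cells 6 were higher and 4 lower in ovary, and Insl3, the insulin-like hormone of mature theca, was near 0 in both organs, at 0 to 0.142 CPM in ovary and 0.0516 to 0.122 CPM in uterus.

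Receptors for hormones were called in both directions. Of 36 tested, 17 were higher and 15 lower in ovary, and 15 and 9 of these passed 2-fold. Among all genes 35.2% were higher and 34.3% lower, and 14.6% and 13.4% passed 2-fold. The oestrogen receptors differed in opposite directions, as Esr2 measured 113, 94.5 and 100 CPM in ovary against 0.155, 0.0987 and 0.365 CPM in uterus. Esr1 measured 106, 81.8 and 84.9 CPM in ovary against 352, 302 and 292 CPM in uterus (log2 fold change -1.79, SE 0.13, edgeR adjusted p = 7.06e-07). Pgr measured 6.05, 3.26 and 5.66 CPM in ovary and 101, 103 and 99.1 CPM in uterus (log2 fold change -4.33). Without uterus library 3 the log2 fold change of Esr2 was 9.58 instead of 8.98. Thus Esr2 was high in every ovary library, and Esr1 and Pgr were high in every uterus library. Oxtr, the oxytocin receptor, which is known for uterine contraction at birth, measured 289, 96.4 and 322 CPM in ovary and 8.83, 6.42 and 10.6 CPM in uterus, lowest in ovary library 2. The prostaglandin E receptors Ptger3 and Ptger4 were lower in ovary, with log2 fold changes of -3.42 and -3.91.

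Genes of luminal and glandular epithelium marked the uterus. Of 31 tested, 0 were higher and 29 lower in ovary by edgeR, 27 of them over 2-fold, against 13.4% over 2-fold lower among all genes, with a median log2 fold change of -5.15. DESeq2, limma-voom and an unadjusted p under 0.05 in edgeR also gave 0 higher. Cdh1, which encodes E-cadherin, measured 11.6, 13.9 and 13.5 CPM in ovary and 494, 466 and 420 CPM in uterus (log2 fold change -5.15, SE 0.13, edgeR adjusted p = 1.30e-09). Cldn3, a tight junction protein, measured 2.42, 3.47 and 2.75 CPM in ovary against 601, 632 and 386 CPM in uterus. Foxa2, the transcription factor that uterine glands need, had 2 counts in ovary, and 28.1, 25.02 and 12.4 CPM in uterus, where library 3 was lowest. The ratio of uterus over ovary was 536 with an exact counting interval of 148 to 4430, and the log2 fold change of -8.80 was -11.62 without ovary library 2 and -8.16 without ovary library 3. The keratin genes Krt8, Krt18 and Krt19 were lower in ovary with log2 fold changes of -3.65, -3.74 and -3.65, and they stand on the list for surface epithelium and mesothelium too. Of 13 genes on that list 1 was higher, 8 were lower and 4 were shared, among them Wt1, which measured 138, 174 and 166 CPM in ovary and 148, 153 and 206 CPM in uterus.

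Smooth muscle genes were mostly lower in ovary but present there. Of 24 tested, 21 were lower, 15 of them over 2-fold, and 3 were higher, with a median log2 fold change of -1.72. Acta2, smooth muscle actin, measured 940, 981 and 974 CPM in ovary and 4001, 4166 and 5049 CPM in uterus (log2 fold change -2.19, SE 0.12, edgeR adjusted p = 1.02e-07). Des, the intermediate filament desmin, measured 19.1, 37.7 and 36.6 CPM in ovary against 718, 857 and 988 CPM in uterus. Uterus library 3 was the highest in both genes, and the organs did not overlap. Myocd, a coactivator of smooth muscle genes, went the other way, with 26.0, 31.3 and 29.3 CPM in ovary and 5.32, 3.75 and 4.81 CPM in uterus (log2 fold change 2.64, SE 0.19, edgeR adjusted p = 6.59e-07). The other higher members were Cald1 and Synm.

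Promoters of 20 of the 24 muscle genes were found in RefSeq, and 3 of their 24 promoters, from 2 genes, held a CArG box, the site of serum response factor, within 250 bases before the start. That was 12.5% against 1.47% of all promoters and 1.15% of the promoters of genes tested. Both strands were searched, and capitals mark the match.
Myl9, chr2:156775278-156775337, plus strand: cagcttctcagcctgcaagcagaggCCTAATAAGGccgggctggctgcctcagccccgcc
Ldb3, chr14:34588682-34588741, minus strand: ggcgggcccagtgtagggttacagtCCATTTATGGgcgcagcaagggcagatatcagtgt
Myl9, a regulatory light chain of myosin, measured 227, 239 and 207 CPM in ovary and 1210, 1317 and 1564 CPM in uterus (log2 fold change -2.60, SE 0.12, edgeR adjusted p = 4.86e-08). Ldb3, a protein of the muscle Z-disc, measured 2.96, 4.04 and 2.80 CPM in ovary against 5.47, 7.45 and 10.1 CPM in uterus. Both were lower in every ovary library than in any uterus library.

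**Figure D2:**
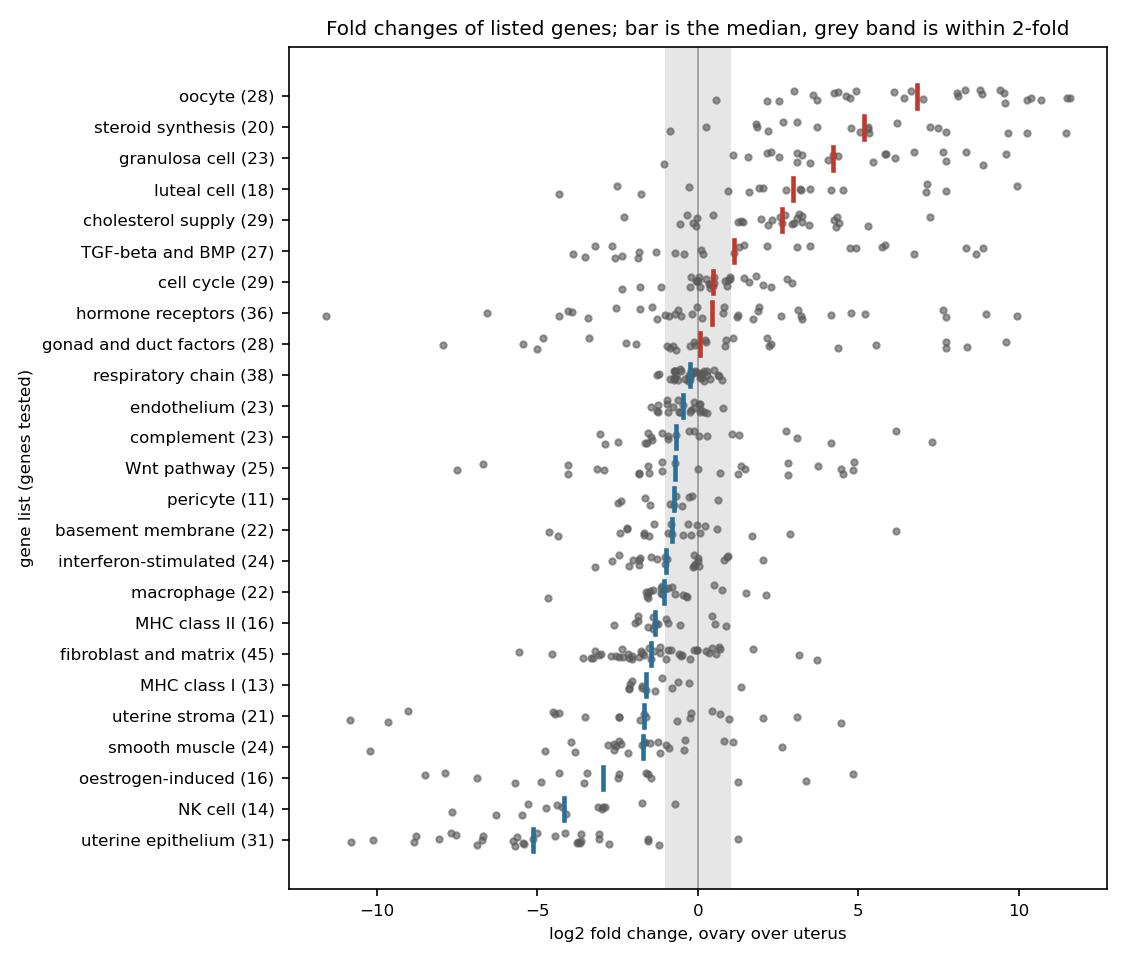
Log2 fold changes, ovary over uterus, of the tested genes of 25 lists, with 1 point per gene a coloured bar at each median, and fitted values where an organ had no count. Oocyte and steroid synthesis genes lie farthest right, uterine epithelium and NK cell genes farthest left, and most respiratory chain genes lie inside the grey band of 2-fold.

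Regulators of the endometrial stroma were mostly lower in ovary. Of 21 tested, 13 were lower, 11 of them over 2-fold, and 6 were higher. Hand2, a stromal factor that acts below progesterone, measured 0, 0.0709 and 0.370 CPM in ovary and 138, 144 and 142 CPM in uterus, and its log2 fold change was -9.67, or -11.71 without ovary library 3. Among the higher members, Bmp2 and Wnt4 are known for decidualization, the later change of the stroma, and also act in the ovary. Wnt4 measured 148, 108 and 234 CPM in ovary against 7.38, 6.61 and 8.16 CPM in uterus, and Bmp2 measured 67.7, 63.4 and 49.1 CPM in ovary against 8.05, 5.43 and 7.55 CPM in uterus. Nr2f2, a nuclear receptor of stroma, was shared, with 300, 278 and 239 CPM in ovary and 340, 297 and 336 CPM in uterus, ranges that overlapped.

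Genes known to respond to ovarian steroids in the uterus were mostly lower in ovary. Of 20 tested progesterone-induced genes, 12 were lower in ovary, 9 of them over 2-fold, 3 were higher and 5 were shared. Hdc, the enzyme that makes histamine, measured 35.7, 17.4 and 23.2 CPM in ovary and 985, 1194 and 1110 CPM in uterus (log2 fold change -5.43, SE 0.28, edgeR adjusted p = 1.15e-06). Irg1, the enzyme that makes itaconate, measured 0, 2.62 and 0 CPM in ovary, all of it in library 2, and 175, 261 and 351 CPM in uterus. Its log2 fold change was -8.36, and -7.66 without ovary library 3, while without ovary library 2 no ovary count was left and the fitted value was -15.20. The 3 higher members were Fkbp5, Bmp2 and Cited2, and Fkbp5, a chaperone partner of steroid receptors, measured 929, 550 and 945 CPM in ovary against 69.7, 54.2 and 61.1 CPM in uterus. Of 16 tested oestrogen-induced genes, 12 were lower, 11 of them over 2-fold, and 2 were higher. Ltf, which encodes lactoferrin, measured 2.29, 1.56 and 3.17 CPM in ovary and 212, 259 and 385 CPM in uterus. Greb1 and Clu were the 2 higher members, and Clu, which encodes clusterin, measured 1402, 2374 and 1325 CPM in ovary against 156, 182 and 158 CPM in uterus.

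The Hox clusters, which set position along the body axis, differed between the organs cluster by cluster. Of 8 tested Hoxa genes 6 were lower and 1 higher in ovary, of 8 Hoxb genes 7 were lower, and of 6 Hoxd genes 5 were lower. All 6 tested Hoxc genes were higher in ovary, over 2-fold. The opposite calls were 0 in the Hoxb, Hoxc and Hoxd clusters by edgeR, also at an unadjusted p under 0.05, by DESeq2 and by limma-voom. In edgeR 1 Hoxd gene, Hoxd8, was higher in ovary without ovary library 3, and also with trends over GC content and length removed. Hoxa10, needed for the uterus to accept an embryo in mice, measured 1.34, 1.70 and 0.952 CPM in ovary and 626, 645 and 794 CPM in uterus (log2 fold change -9.03, SE 0.21, edgeR adjusted p = 9.20e-10). Hoxc8 measured 38.3, 45.6 and 33.4 CPM in ovary against 1.497, 1.38 and 1.16 CPM in uterus (log2 fold change 4.85, SE 0.20, edgeR adjusted p = 2.19e-08). Each of these genes thus marked 1 organ in every library.

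Within a cluster the difference varied with the gene. Among Hoxa genes the log2 fold change was -7.00 for Hoxa9, -9.03 for Hoxa10 and -10.85 for Hoxa11 (-12.07 without ovary library 2), while Hoxa4 was higher in ovary with 2.45. Among Hoxd genes it was -1.18 for Hoxd9, -2.45 for Hoxd10 and -5.35 for Hoxd11. Hoxd8 and Hoxb9 were shared, and Hoxd8 measured 78.4, 77.3 and 66.5 CPM in ovary and 65.5, 56.4 and 65.4 CPM in uterus. Hoxb9 measured 9.01, 9.29 and 6.77 CPM in ovary against 9.76, 8.98 and 7.92 CPM in uterus, and its neighbour Hoxb8 measured 1.28, 3.40 and 1.38 CPM in ovary against 107, 97.1 and 60.8 CPM in uterus. Summed over each cluster, Hoxa genes gave 9.05 to 15.4 CPM in ovary against 1033 to 1294 CPM in uterus, and Hoxc genes gave 112 to 139 CPM in ovary against 15.7 to 16.5 CPM in uterus.

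**Figure D3:**
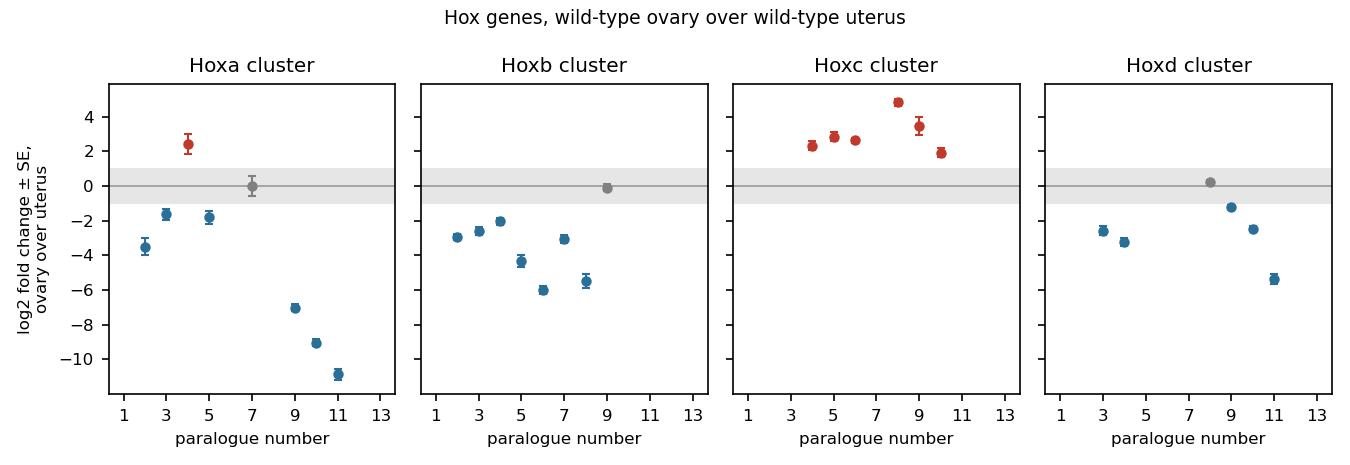
Log2 fold change (± SE) of each tested Hox gene, ovary over uterus, by cluster and paralogue number, with 3 libraries per organ and a grey band of 2-fold. Hoxc genes lie above the band, Hoxa9 to Hoxa11 and Hoxd9 to Hoxd11 step downward, and grey points mark genes that did not pass the test.

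Transcription factors of the gonad and the Mullerian duct were called in both directions. Of 28 tested, 12 were higher and 10 lower in ovary, not far from the 35.2% and 34.3% of all genes. Of these, 9 and 7 passed 2-fold, against 14.6% and 13.4% of all genes. Nr5a1, steroidogenic factor 1, measured 343, 439 and 327 CPM in ovary and 0.413, 0.148 and 0.914 CPM in uterus. Lhx9, a factor of the early gonad, measured 29.3, 25.6 and 18.8 CPM in ovary against 0.0609 to 0.155 CPM in uterus. Pax2, a factor of the duct, measured 0, 0.0709 and 0.265 CPM in ovary against 37.1, 36.8 and 22.4 CPM in uterus. Gata4 measured 282, 272 and 266 CPM in ovary against 0.465, 0.444 and 3.17 CPM in uterus, and without uterus library 3 its log2 fold change was 9.20 instead of 7.73. Likewise that of Nr5a1 was 10.33 instead of 9.60 without uterus library 3, and that of Pax2 was -9.58 instead of -7.93 without ovary library 3. The 6 shared genes included Wt1, Nr2f2 and Tcf21, which are active in mesenchyme of many organs.

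Fibroblast and matrix genes were present in both organs and mostly lower in ovary. Of 45 tested, 29 were lower, 22 of them over 2-fold, 7 were higher, 3 of them over 2-fold, and 8 were shared, with a median log2 fold change of -1.46. Without uterus library 2, 4 were higher. Col3a1, a fibrillar collagen, measured 959, 1154 and 1050 CPM in ovary and 4677, 4762 and 6868 CPM in uterus (log2 fold change -2.37, SE 0.16, edgeR adjusted p = 6.63e-07). Col1a1 measured 148, 160 and 210 CPM in ovary against 1067, 1388 and 1716 CPM in uterus, and Pdgfra, a receptor that marks fibroblasts, measured 187, 205 and 194 CPM in ovary against 448, 443 and 436 CPM in uterus. Uterus library 3 was the highest uterine library in 31 of the 45 genes. Twist2, a factor of mesenchyme, measured 1.41, 1.84 and 1.27 CPM in ovary against 65.5, 74.8 and 75.8 CPM in uterus, while its relative Twist1 was higher in ovary with a log2 fold change of 0.65.

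A few matrix genes went the other way or did not separate the organs. Ogn, the proteoglycan osteoglycin, measured 703, 764 and 466 CPM in ovary and 42.3, 42.7 and 61.8 CPM in uterus (log2 fold change 3.72, SE 0.24, edgeR adjusted p = 2.90e-06). Tnc, the matrix protein tenascin C, measured 308, 255 and 157 CPM in ovary against 25.5, 22.4 and 33.6 CPM in uterus. Pcolce, which helps to trim procollagen, was the third that passed 2-fold, with a log2 fold change of 1.73. Bgn, the proteoglycan biglycan, was shared, with 399, 448 and 470 CPM in ovary and 446, 416 and 472 CPM in uterus. Sparc, a collagen-binding protein, measured 1579, 1621 and 1598 CPM in ovary and 1618, 1487 and 2106 CPM in uterus, ranges that overlapped. With trends over GC content and length removed, Sparc was higher in ovary by 0.33 on the log2 scale. Dcn, decorin, had an interval within 2-fold but was lower in ovary by 0.53 on the log2 scale, with an SE of 0.16. Its edgeR adjusted p was 0.0134, and 0.0557 without ovary library 1.

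Basement membrane genes were more often lower than higher in ovary. Of 22 tested, 14 were lower, 9 of them over 2-fold, 4 were higher, 3 of them over 2-fold, and 7 were shared. Lama1, a laminin chain, measured 122, 129 and 139 CPM in ovary and 1.45, 1.78 and 2.19 CPM in uterus (log2 fold change 6.17, SE 0.16, edgeR adjusted p = 1.80e-09). Col4a3 and Col4a4, paired chains of collagen type IV, were higher in ovary with log2 fold changes of 1.69 and 2.87. The common chains Col4a1 and Lamb1 were shared, as Col4a1 measured 625, 638 and 749 CPM in ovary and 669, 627 and 615 CPM in uterus.

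Vessel genes separated the organs least among the mesenchymal lists by median. Of 23 endothelial genes 13 were shared, against a background of 39.9%, while 11 were lower and 1 was higher, and 1 lower gene passed 2-fold. This moved with the scaling. Under upper-quartile scaling 10 endothelial genes were shared and 14 lower, with 5822 of all 15027 genes shared. The lymphatic list then separated the organs least, with a median log2 fold change of 0.55 against -0.65 for endothelium. With trends over GC content and length removed, 4 endothelial genes were higher, 11 lower and 13 shared. Cdh5, the cadherin of endothelium, measured 165, 159 and 156 CPM in ovary and 228, 171 and 125 CPM in uterus. Kdr, a receptor for vascular endothelial growth factor, measured 135, 82.4 and 110 CPM in ovary and 111, 88.0 and 86.0 CPM in uterus. For both the ranges overlapped. Pecam1, an adhesion protein of endothelium, was lower in ovary, with 144, 156 and 128 CPM there against 267, 236 and 221 CPM in uterus. Of 11 pericyte genes 7 were lower, 1 was higher and 3 were shared, and Pdgfrb measured 104, 86.9 and 112 CPM in ovary and 132, 116 and 119 CPM in uterus. Of 6 tested lymphatic genes 3 were higher and 0 lower by edgeR, also unadjusted, DESeq2 and limma-voom, and Mmrn1 measured 91.6, 92.1 and 77.8 CPM in ovary against 17.5, 16.4 and 31.6 CPM in uterus.

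**Figure D4:**
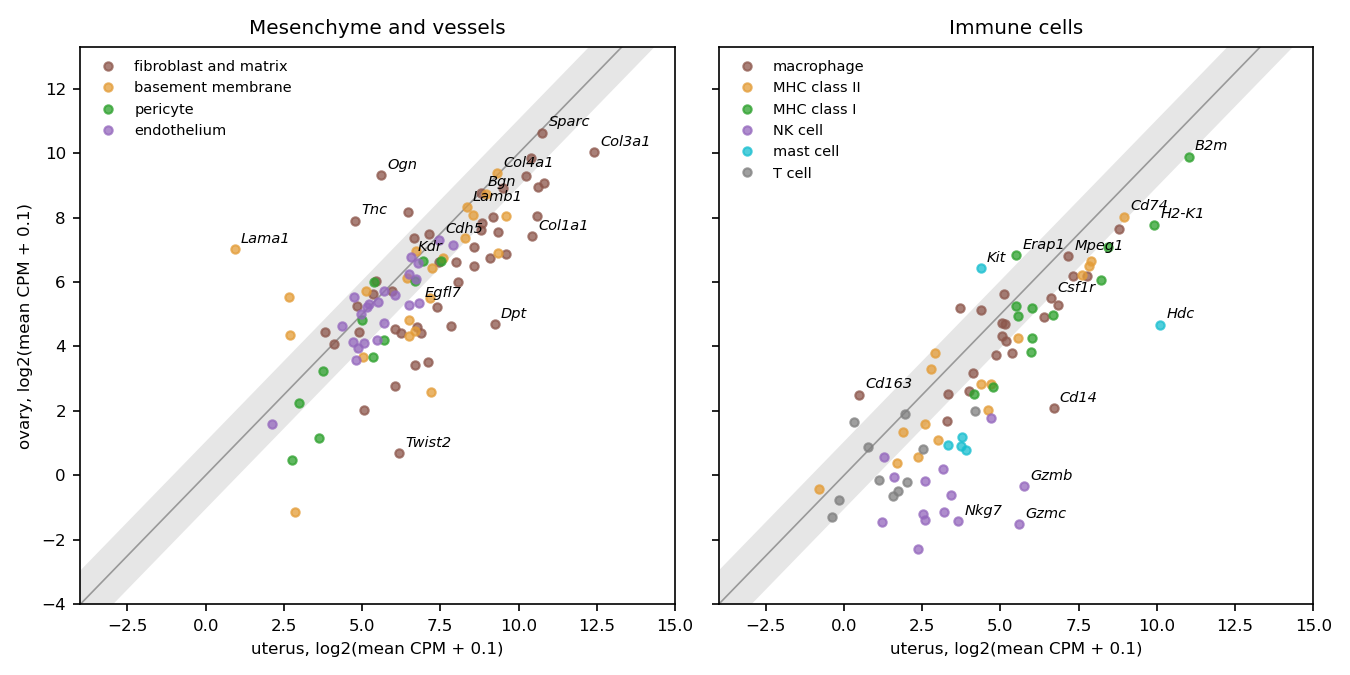
Mean level of each tested gene in ovary (vertical) and uterus (horizontal) as log2(mean CPM + 0.1) over 3 libraries per organ, for mesenchyme and vessels (left panel) and immune cells (right panel), with a grey band of 2-fold. Most endothelial genes and Col4a1 lie in or near the band, Col1a1, Col3a1 and most NK cell genes fall below it, and Lama1, Ogn, Tnc and Cd163 lie above it.

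Macrophage genes were present in both organs and mostly lower in ovary. Of 22 tested, 15 were lower, 5 of them over 2-fold, 3 were higher and 2 were shared, with a median log2 fold change of -1.07. Within uterus, library 3 was highest in 19 of the 22 genes and library 1 lowest in 17. Without library 3, 3 genes were over 2-fold lower and 4 were shared, and without library 1, 9 were over 2-fold lower. Csf1r, the receptor macrophages need, measured 48.6, 39.8 and 46.1 CPM in ovary and 81.0, 94.5 and 121 CPM in uterus (log2 fold change -1.14, SE 0.15, edgeR adjusted p = 7.75e-05). Cd14, a receptor for bacterial lipopolysaccharide, measured 4.98, 3.54 and 3.81 CPM in ovary against 108, 115 and 87.7 CPM in uterus. Cd163, a scavenger receptor, measured 4.57, 6.38 and 5.77 CPM in ovary against 0.981, 0.493 and 2.38 CPM in uterus, where library 3 was highest, and its log2 fold change was 2.14 with that library and 2.90 without it. Mpeg1 was shared, at 118, 92.5 and 125 CPM in ovary and 117, 128 and 186 CPM in uterus.

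Genes of antigen presentation were mostly lower in ovary. Of 16 genes for MHC class II and dendritic cells 12 were lower, 7 of them over 2-fold, and 1 was higher. Uterus library 3 was the highest uterine library in 13 of the 16, and without it or without ovary library 1 only 3 passed 2-fold, as did 2 with DESeq2 and with limma-voom. Of 13 genes for MHC class I and its proteasome 11 were lower, 8 of them over 2-fold, and 1 was higher. H2-K1, a class I heavy chain, measured 213, 202 and 246 CPM in ovary and 892, 959 and 1029 CPM in uterus (log2 fold change -2.12, SE 0.11, edgeR adjusted p = 1.00e-07). Reads of class I heavy chains may be split between near-identical copies. Cd74, the chain that guides class II molecules, measured 227, 247 and 312 CPM in ovary against 451, 520 and 523 CPM in uterus, and H2-Aa measured 85.2, 82.0 and 104 CPM in ovary against 183, 218 and 285 CPM in uterus. Erap1, which trims peptides for class I, was the higher class I member, with 131, 113 and 98.9 CPM in ovary and 45.0, 45.7 and 45.5 CPM in uterus.

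Natural killer (NK) cell genes had the lowest median of the immune lists. Of 14 tested, 13 were lower in ovary, 12 of them over 2-fold, and 0 were higher by edgeR, also unadjusted, DESeq2 and limma-voom, with a median log2 fold change of -4.17. Ncr1, the receptor that defines these cells, measured 0.538, 0.354 and 0.106 CPM in ovary and 5.37, 5.43 and 6.27 CPM in uterus. Gzmb, a protease of their granules, measured 1.14, 0.567 and 0.370 CPM in ovary against 25.9, 64.2 and 71.9 CPM in uterus, and Gzmc measured 0.471, 0.283 and 0 CPM in ovary against 12.4, 53.7 and 79.0 CPM in uterus. Uterus library 1 was the lowest of its group for both proteases and still above every ovary library. Without it the log2 fold change of Gzmb was -6.66 instead of -6.31, while that of Gzmc was -7.66, or -8.54 without ovary library 1 and -6.96 without ovary library 3.

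Lists for other immune cells had 11 or fewer tested members. Of 11 tested T cell genes 5 were lower and 1 was higher in ovary, and the defining genes Cd3e and Cd3d were at 0.159 to 1.13 CPM in ovary and 0 to 3.35 CPM in uterus. Of 5 tested genes for B and plasma cells 2 were lower, and 0 were higher by edgeR, also unadjusted, DESeq2 and limma-voom. In edgeR 1 was higher with no filter on low counts and without ovary library 1, uterus library 1 or uterus library 3. The lower count in this list was 1 without uterus library 1 or 3, and 3 without ovary library 1 or uterus library 2. Igj, a chain of secreted antibodies, measured 1.88, 1.35 and 7.72 CPM in ovary and 130, 6.86 and 28.0 CPM in uterus, where library 1 was far above the others (edgeR adjusted p = 0.0738). Of 3 tested neutrophil genes 1 was lower, and 0 were higher by the same 3 tools. Of 3 tested eosinophil genes 1 was lower and 0 were higher by these tools. It was Alox15, which epithelium also makes, with a log2 fold change of -7.57, or -8.46 without ovary library 2, while the defining genes Ccr3 and Prg2 were under 1 CPM in all 6 libraries. Of 6 tested mast cell genes 4 were lower and 1 was higher. Hdc, given above with the progesterone-induced genes, was the 1 lower member that passed 2-fold. It measured 985, 1194 and 1110 CPM in uterus, where the whole list summed to 1029, 1274 and 1206 CPM. The lower count was 2 without ovary library 3, uterus library 2 or uterus library 3, and also with no filter on low counts, and the higher count was 0 by edgeR without uterus library 2 or 3. Cpa3, a mast cell protease, measured 0.404, 3.05 and 1.96 CPM in ovary against 4.23, 10.1 and 15.3 CPM in uterus (log2 fold change -2.45, edgeR adjusted p = 0.0166, and 0.0655 without ovary library 3). Kit, which oocytes and theca also express, was the higher member, with 67.3, 150 and 42.4 CPM in ovary against 26.5, 20.7 and 14.5 CPM in uterus. Its log2 fold change was 2.07 (edgeR adjusted p = 0.0238), 1.41 without ovary library 2, and it lost the call without uterus library 2 or 3 (edgeR adjusted p = 0.0804 and 0.0815).

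Of 23 complement genes 6 were higher and 11 lower in ovary, with 5 shared, or 3 without ovary library 1, uterus library 1 or uterus library 2. C3, the central component, measured 79.8, 265 and 211 CPM in ovary against 911, 996 and 1212 CPM in uterus. Of 24 interferon-stimulated genes 13 were lower, 4 were higher and 7 were shared. Ifih1, a sensor of viral RNA, measured 46.1, 36.5 and 37.2 CPM in ovary against 10.5, 10.0 and 8.59 CPM in uterus, while Oas1a, another such sensor, measured 1.28, 1.42 and 1.85 CPM in ovary against 15.4, 13.5 and 13.8 CPM in uterus. The list therefore held members that were high in either organ. Of 26 tested chemokine genes 10 were lower and 2 higher, and the 2 higher were Cxcl14, at 166, 120 and 116 CPM in ovary and 34.6, 44.7 and 33.7 CPM in uterus, and Cxcl1.

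Signalling families held members that were high in either organ. Of 25 tested Wnt pathway genes 10 were higher and 12 lower in ovary, and Wnt7a, a Wnt of uterine epithelium, measured 0.202, 0 and 0.159 CPM in ovary against 12.5, 16.0 and 12.2 CPM in uterus. Sfrp4, a secreted Wnt antagonist, measured 1411, 1472 and 749 CPM in ovary against 42.6, 39.9 and 76.6 CPM in uterus. Of 27 genes for TGF-beta family ligands and antagonists 14 were higher and 10 lower. Fst, the activin antagonist follistatin, was higher in ovary with a log2 fold change of 2.15, and the antagonists Nog, Chrd, Nbl1 and Bambi were lower with -3.88, -2.58, -1.85 and -2.38. Of 13 hedgehog genes 4 were higher and 5 lower, shares not far from those of all genes. The ligand Dhh measured 25.1, 23.2 and 28.9 CPM in ovary against 3.46, 3.21 and 4.63 CPM in uterus, and Gli1, a target and effector of the pathway, measured 12.9, 15.8 and 18.4 CPM in ovary against 179, 206 and 154 CPM in uterus. Of 15 insulin-like growth factor genes 3 were higher, 6 were lower and 5 were shared, and the growth factor Igf1 measured 179, 202 and 184 CPM in ovary against 553, 467 and 540 CPM in uterus while its receptor Igf1r was higher in ovary with a log2 fold change of 1.71.

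Of 14 tested prostaglandin genes 3 were higher and 5 lower in ovary, shares not far from those of all genes. Ptgs1, the constitutive cyclooxygenase, measured 7.74, 15.03 and 5.71 CPM in ovary and 95.4, 123 and 106 CPM in uterus, whereas Ptges, the synthase of prostaglandin E2, measured 150, 119 and 126 CPM in ovary against 13.5, 14.4 and 16.4 CPM in uterus. Of 15 tested retinoid genes 7 were higher and 6 lower, likewise not far from the shares of all genes. Aldh1a1, which makes retinoic acid, measured 5383, 7531 and 3496 CPM in ovary and 36.1, 37.2 and 44.3 CPM in uterus, and its relative Aldh1a2 was shared, at 127, 119 and 144 CPM in ovary and 160, 141 and 146 CPM in uterus.

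Subunits of the respiratory chain mostly lay within 2-fold. Of 38 tested genes for respiratory chain subunits 33 were shared, against 39.9% of all genes, while 7 were higher, 17 were lower and 1 lower gene passed 2-fold. The split moved with the scaling, to 4 higher and 24 lower under upper-quartile scaling, and to 12 higher and 11 lower with trends over GC content and length removed. Sdha measured 515, 543 and 512 CPM in ovary and 342, 342 and 328 CPM in uterus, a difference within 2-fold that passed the test (log2 fold change 0.63, SE 0.09, edgeR adjusted p = 0.000106). Of 31 antioxidant genes 14 were shared, 13 were higher and 8 lower. Gpx2, a glutathione peroxidase of epithelia, had 2 counts in ovary against 51.0, 69.0 and 66.7 CPM in uterus, a ratio of uterus over ovary of 1490 with an exact counting interval of 411 to 12300. Without ovary library 3 the log2 fold change of Gpx2 was -13.05 instead of -10.31. Of 29 genes for the cell cycle 14 were shared, 13 were higher in ovary, 6 of them over 2-fold, and 3 were lower. With trends over GC content and length removed, 12 were shared, 16 were higher, only 2 of them over 2-fold, and 4 were lower. Within ovary, library 3 was highest in 25 of these genes and library 2 lowest in 21, and without library 3 the lower count was 5 and the median log2 fold change 0.14 instead of 0.46. Mki67, a marker of dividing cells, measured 144, 138 and 212 CPM in ovary and 19.7, 20.9 and 24.7 CPM in uterus (log2 fold change 2.92, SE 0.18, edgeR adjusted p = 6.36e-07), and the cyclins Ccnd1 and Ccnd2 differed in opposite directions, with log2 fold changes of -1.81 and 2.77.

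**Figure D5:**
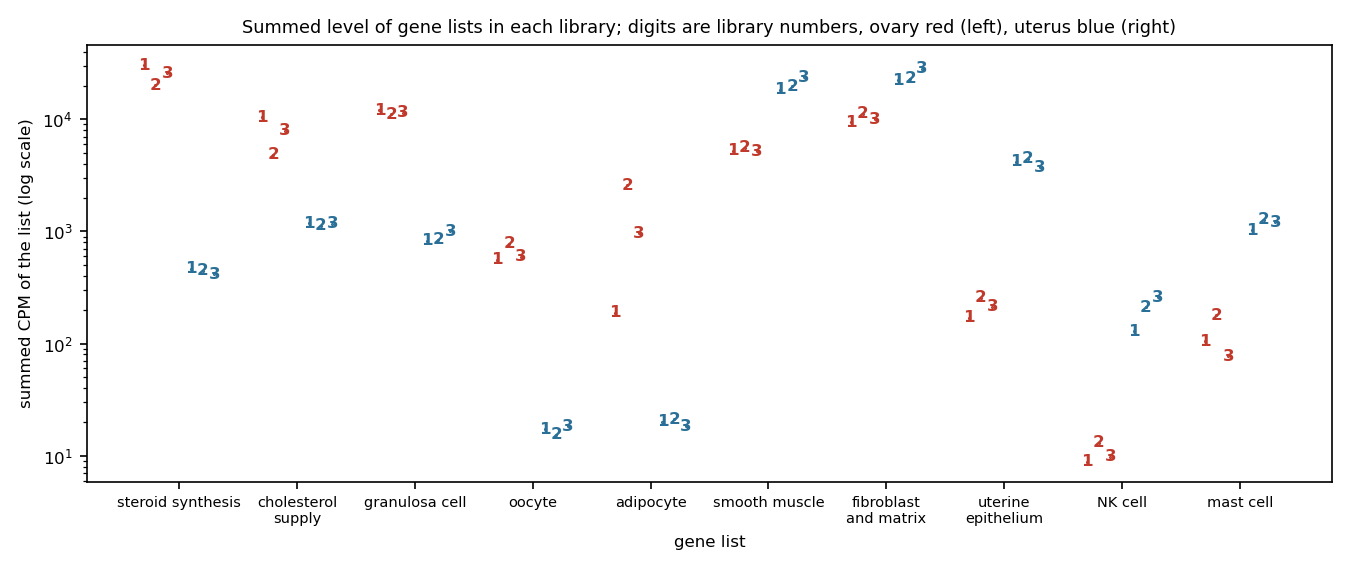
Summed CPM of 10 gene lists in each library on a log scale, with digits for the library number, ovary in red at the left and uterus in blue at the right of each list. Ovary library 2 is lowest for steroid synthesis and cholesterol supply and highest for adipocyte genes, and uterus library 1 is lowest for NK cell genes. Most of the mast cell sum in uterus comes from Hdc, which is also on the progesterone-induced list.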

How the data were processed

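Whole wild-type ovary and uterus were sequenced as poly-A RNA, 3 libraries each, with a TruSeq kit that keeps no strand, per the labels' protocols. The authors deposited raw counts per gene symbol. STAR, HTSeq, Trimmomatic, DESeq2, FastQC and mm10 are named, with no role, in the notes on processing by the submitters, with versions and annotation not given in the sources used here. Of 24222 entries, 27 carried a spreadsheet date in place of a symbol and were left out (0.213% to 0.276% of counts), and the other 24195 were kept. No per-sample column was left without a sample.

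The 6 libraries alone were fitted in edgeR 4.0.16 (R 4.3.3) with TMM scaling, filterByExpr, robust quasi-likelihood F tests and glmTreat at 2-fold, two-sided, with Benjamini-Hochberg adjustment over all genes tested at 0.05. SE matches the F statistic. Alternatives were RLE, upper-quartile and unscaled totals, no filter, at least 1 CPM in 3 libraries, DESeq2 1.42.0, limma-voom (limma 3.58.1), the label number as a block, leaving out each library and, added later, removal of GC and length trends. Tests were tried on simulated counts. The 50 gene lists and their members were chosen with earlier results of these data known. Named genes were the 12 largest folds per direction past glmTreat with at least 20 CPM in the higher organ (predicted symbols left out). Their choice also required groups that did not overlap. Of each list, the defining members, the 4 most abundant and up to 2 of the largest folds per direction were named. Up to 3 shared mesenchymal or immune members and all tested position genes were named too. Further list members are named where a count is explained, chosen after their values were seen. Promoters came from RefSeq (GRCm38.p6), 250 bases before each start, and gene lengths and GC content from GENCODE M21. Values of some single list members are not reported here.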

Additional observations from a re-analysis of the deposited data

How the results depend on the processing

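The counts of genes over all settings stayed within 1.5 times the values reported. Leaving out 1 library gave 4758 to 5311 genes higher and 4509 to 5282 lower in ovary, 2039 to 2268 and 1755 to 2197 over 2-fold, and 5450 to 6085 held within 2-fold. Scaling by library totals alone moved the median log2 fold change to -0.14 and upper-quartile scaling to -0.21, with 4386 genes higher and 6195 lower under the second. DESeq2 called 1886 and 1576 genes over 2-fold, and limma-voom 1902 and 1718. In none of these fits did a called gene turn sign. The label number as a replicate block gave 4969 genes higher, 4838 lower, 2129 and 1947 over 2-fold and 5643 held within 2-fold. Libraries of the same number did not deviate together (r of 0.02, -0.06 and -0.07 for the 3 pairs), so the numbers were not used to pair libraries, and whether they mark a shared female is not given in the labels.

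Fold changes across genes correlated with GC content (Spearman rho of -0.36 over 14431 genes, which are not independent). A fit that took out the dependence of counts on GC content and length, chosen after seeing the data, gave 4969 genes higher and 4575 lower, 1698 and 1679 over 2-fold and 6786 within 2-fold, and 919 called genes turned sign. Among named genes 11 turned. Their log2 fold changes in that fit were -0.07 for Abcc9, -0.24 for Prdx1, 0.02 for Psmb10, 0.50 for Bst2, -0.89 for Cd55, 0.49 for Col4a2, 0.74 for Cx3cl1, 0.45 for Fmod, -0.77 for Hpgd, 0.33 for Sparc and -0.45 for Tek, and the first 3 had been called. The cause was not tested. Of 359 named genes, 18 lost a call in at least 1 setting, and in 56 the fold change moved by over 1.5 times without 1 library, with none turning sign. Many of these had few counts in 1 organ, where the floor of 3 counts over a group is 0.0626 CPM in ovary and 0.0535 CPM in uterus.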

Other observations

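Cells from neighbouring tissues could be followed by their own lists. Of 7 tested oviduct and cilia genes 3 were lower and 2 higher in ovary. Ovgp1, a glycoprotein that the oviduct secretes, measured 0.135, 6.03 and 3.70 CPM in ovary and 55.3, 83.7 and 73.9 CPM in uterus. Its log2 fold change was -4.43, or -5.10 without ovary library 2, while Foxj1, the factor that defines ciliated cells, stayed at 0.874 to 1.21 CPM in ovary and 0.792 to 1.38 CPM in uterus. Of 6 tested adipocyte genes 5 were higher in ovary and 0 lower by edgeR, also unadjusted. DESeq2 called 5 higher and limma-voom 2, neither called any lower, and the replicate block gave 2. Leaving out 1 library, edgeR called 3 of 7 tested without ovary library 2, 2 of 6 without ovary library 3, 2 of 10 without any 1 uterus library and 10 of 10 without ovary library 1. Fabp4, a fatty acid carrier, measured 6.32, 497 and 129 CPM in ovary against 1.03, 1.63 and 1.28 CPM in uterus, higher in ovary by 7.31 on the log2 scale with an edgeR adjusted p = 0.0297. It lost the call without ovary library 2 (5.68, adjusted p = 0.0553), without ovary library 3 (adjusted p = 0.0622) and without uterus library 1, 2 or 3 (adjusted p = 0.0994, 0.099 and 0.1), with limma-voom (adjusted p = 0.159) and with the replicate block (adjusted p = 0.0557). Red cell genes gave 1 tested member, Alas2, which did not pass the test, and Hba-a1 is listed at 0 in all 6 libraries. Of 7 tested nerve genes 3 were higher and 2 lower in ovary, and Mbp, a myelin protein, measured 55.4, 56.6 and 49.7 CPM in ovary against 11.5, 15.7 and 16.0 CPM in uterus. Of 13 nuclear, ribosomal and stress transcripts 2 were higher and 3 lower, or 6 lower without ovary library 2.

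Of 14 tested genes for channels that move fluid across epithelia 9 were lower in ovary, 6 of them over 2-fold, and 1 was higher. With no filter on low counts 20 were tested and 4 were higher, and without uterus library 3 it was 3 of 17. Slc9a3, Aqp2 and Slc26a3, which the filter left out, had 72, 43 and 29 counts over the ovary libraries against 0 over the uterus libraries, at least 28.1-fold, 16.8-fold and 11.3-fold higher in ovary. Scnn1b, a subunit of the epithelial sodium channel, measured 0.336, 0.638 and 0.0529 CPM in ovary and 35.6, 38.98 and 34.7 CPM in uterus. Aqp11, a water channel, measured 0.942, 1.77 and 1.85 CPM in ovary against 45.8, 55.8 and 40.5 CPM in uterus. Both were high in all uterus libraries, and the log2 fold change of Scnn1b was -6.81, with -7.61 without ovary library 2 and -6.21 without ovary library 3. Cftr, a chloride channel, was the tested member that was higher in ovary, with 8.34, 12.9 and 10.4 CPM there against 2.01, 2.22 and 2.38 CPM in uterus (log2 fold change 2.26, SE 0.26, edgeR adjusted p = 2.37e-05).

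Cdkn1b, an inhibitor of the cell cycle, measured 377, 176 and 278 CPM in ovary and 74.5, 78.0 and 85.8 CPM in uterus, whereas Cdkn1c, another such inhibitor, measured 16.3, 30.4 and 13.1 CPM in ovary against 94.0, 106 and 105 CPM in uterus. The groups did not overlap for either gene.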
